A study of Mus musculus with 12 samples.

Results

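The genes described here carry the nitric oxide, natriuretic peptide and cGMP signal in the mouse aorta. They are Nos3, Gucy1a3, Gucy1b3, Npr1, Npr2, Npr3, Prkg1, Pde5a, Pde3a and Pde1a, taken by gene name from the noncontrol probes of a 1-colour Agilent expression array. These 10 genes were read by 15 probes and stood among 34796 gene names on the array, of which 20026 had a tested probe. All 10 genes and all 15 probes passed the filter on dim probes, which a probe passed when every array of some group read it well above background.

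The study asked how rapamycin, an inhibitor of the kinase mTOR, altered gene expression in a model of aortic dissection before dissections form. Adult male C57BL/6J mice, up to 14 weeks old, fell into 4 groups of 3, with 1 array per mouse, and the sampled tissue was 10 mm of aorta above the right renal artery at day 3. The DMSO group received only vehicle by daily intraperitoneal injection, and the rapamycin group received 2 mg/kg/day of the drug in that vehicle. The BA+DMSO and BA+rapamycin groups received the same injections while osmotic minipumps delivered 150 mg/kg/day of β-aminopropionitrile (BAPN), which blocks the crosslinking of collagen and elastin, and 1 µg/kg/min of angiotensin II (AngII), a vasoconstrictor peptide. The study's methods give rapamycin in DMSO by injection. With the treatment labels read this way, all mice had DMSO and no group was free of injection. The titles of the DMSO arrays begin with Pre, and the arrays were read as vehicle controls of day 3. The mice carried no transgene. The comparisons were 4: challenge (BA+DMSO against DMSO), rapamycin under challenge (BA+rapamycin against BA+DMSO), rapamycin alone (rapamycin against DMSO) and challenge under rapamycin (BA+rapamycin against rapamycin), with the interaction as the difference between both challenge comparisons. They share groups and are not independent of each other.

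Nitric oxide made in the endothelium by the synthase Nos3 diffuses into smooth muscle cells and activates soluble guanylate cyclase, a heterodimer of the subunits encoded by Gucy1a3 and Gucy1b3, which makes cGMP. Natriuretic peptides raise cGMP through membrane receptors that are guanylate cyclases themselves, Npr1 for atrial and brain natriuretic peptide and Npr2 for C-type natriuretic peptide, while Npr3 mainly clears these peptides. Cyclic GMP activates the kinase encoded by Prkg1, which relaxes smooth muscle, and phosphodiesterases such as Pde5a and the calcium-dependent Pde1a break cGMP down. Pde3a breaks down mainly cAMP and is inhibited by cGMP, which links both second messengers.

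Values are log2 processed signals minus the 75th percentile of the same array, so that 0 is the level of a fairly bright probe, and they are compared within a probe only. Tests are limma's moderated test over the 12 arrays with Benjamini-Hochberg adjustment over 27801 probes, and a gene was called at an adjusted p under 0.05. Differences, and sizes after "rose by" or "fell by", are log2 unless given as a fold. Each gene is given by its brightest tested probe. The arrays themselves differed between groups. The 75th percentile of processed signal was an intensity of 256 ± 30.7 (SD, n = 3) in DMSO and 289 ± 42.6 in rapamycin, and it was lower in both challenged groups, at 152 ± 86.0 for BA+DMSO and 97.3 ± 19.6 for BA+rapamycin. The BA+DMSO arrays also correlated least with each other, with Pearson's r of 0.912 to 0.961 between arrays, against 0.974 to 0.993 in the other 3 groups. Array 3 of BA+DMSO was the brightest challenged array, at 246, and the others of that group stood at 132 and 78.1. The DMSO arrays and 1 rapamycin array shared a slide, and the other 8 arrays, all challenged ones included, shared a second slide. The sample titles name 5 days for 10 of the arrays, and only 1 day holds both a challenged and an unchallenged array, 1 of each, so day and challenge cannot be told apart.

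The starts of genes that fell together after challenge are shown first, because they give the sequence next to the main finding. Sequences are from RefSeq in GRCm38.p6, where starts of 8 of the 10 genes were used, with Gucy1a3 and Gucy1b3 under their newer symbols Gucy1a1 and Gucy1b1. Each line holds 250 bases before the start, 5′ to 3′ on the gene's strand, with capitals marking the GC box GGGCGG or its reverse complement CCGCCC.
Gucy1a1 (Gucy1a3), first listed start, chr3:82145651-82145900, minus strand: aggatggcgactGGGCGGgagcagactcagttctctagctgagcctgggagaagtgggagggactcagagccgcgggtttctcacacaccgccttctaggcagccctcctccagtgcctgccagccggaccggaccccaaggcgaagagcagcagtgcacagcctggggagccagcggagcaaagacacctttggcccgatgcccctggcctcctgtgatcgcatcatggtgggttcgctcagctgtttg
Gucy1b1 (Gucy1b3), chr3:82074712-82074961, minus strand: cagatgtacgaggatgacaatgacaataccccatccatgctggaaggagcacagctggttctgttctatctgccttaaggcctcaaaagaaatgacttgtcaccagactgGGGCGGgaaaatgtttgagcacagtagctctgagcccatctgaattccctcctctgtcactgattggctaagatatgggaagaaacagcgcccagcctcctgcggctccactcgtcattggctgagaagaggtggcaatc
Npr1, chr3:90465867-90466116, minus strand: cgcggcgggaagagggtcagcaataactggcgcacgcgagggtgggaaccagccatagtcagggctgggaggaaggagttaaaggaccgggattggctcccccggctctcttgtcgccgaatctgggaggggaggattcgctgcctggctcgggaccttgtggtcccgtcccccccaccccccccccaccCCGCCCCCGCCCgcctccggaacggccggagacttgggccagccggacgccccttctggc
Prkg1, first listed start, chr19:31765034-31765283, minus strand: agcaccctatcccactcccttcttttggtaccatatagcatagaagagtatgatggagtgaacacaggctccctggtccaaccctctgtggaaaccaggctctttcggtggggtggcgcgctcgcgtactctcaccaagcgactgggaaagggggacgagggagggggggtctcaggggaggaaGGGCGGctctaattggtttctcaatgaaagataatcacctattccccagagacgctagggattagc

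These 4 stretches each hold a GC box, as do the second Prkg1 start and the Pde5a start. The GC box is common: 32.7% of 32851 mouse starts hold it within the same 250 bases on either strand. No GC box stands in the second Gucy1a1 start or at the starts of Npr2, Npr3 and Pde1a. A CArG box, the motif of serum response factor, stands in 1.47% of starts and in none listed for these genes. The MCAT motif CATTCC stands in 12.6% of starts and the TATA box TATAAA in 12.4%, either strand counted, and among these genes both were found only at starts of Pde1a. Gucy1a1 and Gucy1b1 lie on the same strand of chromosome 3 with starts 70.9 kb apart. Their GC content in this window was 64% and 51.2%, Npr1 stood at 70.4% and Prkg1 at 55.2%, beside a median of 52.4% over all starts. A match of letters is a description of the window and no evidence of binding.

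The next 4 probes, of 60 bases each, hold a reading frame without a stop codon. They are shown because they are what the array measured for Npr1 and where probes of 1 gene can be set side by side. Positions are those of the array design in mm9.
Npr1 probe, chr3:90259171-90259664, minus strand: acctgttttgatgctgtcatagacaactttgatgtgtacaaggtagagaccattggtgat
Nos3 probe printed at 10 spots, chr5:23889636-23889695, plus strand: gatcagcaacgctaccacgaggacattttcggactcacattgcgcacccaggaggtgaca
Pde3a probe, not the main one, chr6:141438649-141438708, plus strand: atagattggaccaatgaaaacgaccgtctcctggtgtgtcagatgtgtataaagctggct
Pde1a probe, not the main one, chr2:79705201-79705260, minus strand: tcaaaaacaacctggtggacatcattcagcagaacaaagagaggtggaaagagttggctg

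The Npr1 probe covers 60 bases but spans 494 bases of the genome, so it crosses an exon junction. The main probes lie at chr5:23890038-23890097 for Nos3, chr3:81896409-81896468 for Gucy1a3, chr3:81836142-81836201 for Gucy1b3, chr4:43664035-43664094 for Npr2 and chr15:11769937-11769996 for Npr3. Those of the other genes lie at chr19:30643563-30643622 for Prkg1, chr3:122558949-122559008 for Pde5a, chr6:141448762-141448821 for Pde3a and chr2:79753894-79753953 for Pde1a. The exon or UTR at these positions was not looked up, since no annotation of that build was used here.

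After BAPN + AngII challenge, 5 of the 10 genes fell and none rose. They were both subunits of soluble guanylate cyclase, the kinase Prkg1, the receptor Npr1 and the phosphodiesterase Pde3a. Gucy1a3 was 3.96-fold lower, Gucy1b3 3.23-fold lower, Prkg1 2.84-fold lower, Npr1 1.96-fold lower and Pde3a 1.64-fold lower. Over all tested genes, 11.0% were called lower and 10.4% higher in this comparison. The median log2 difference was -0.60 over the 10 genes and -0.02 over all genes. Nos3, Npr2, Npr3, Pde5a and Pde1a were not called.

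**Figure D1:**
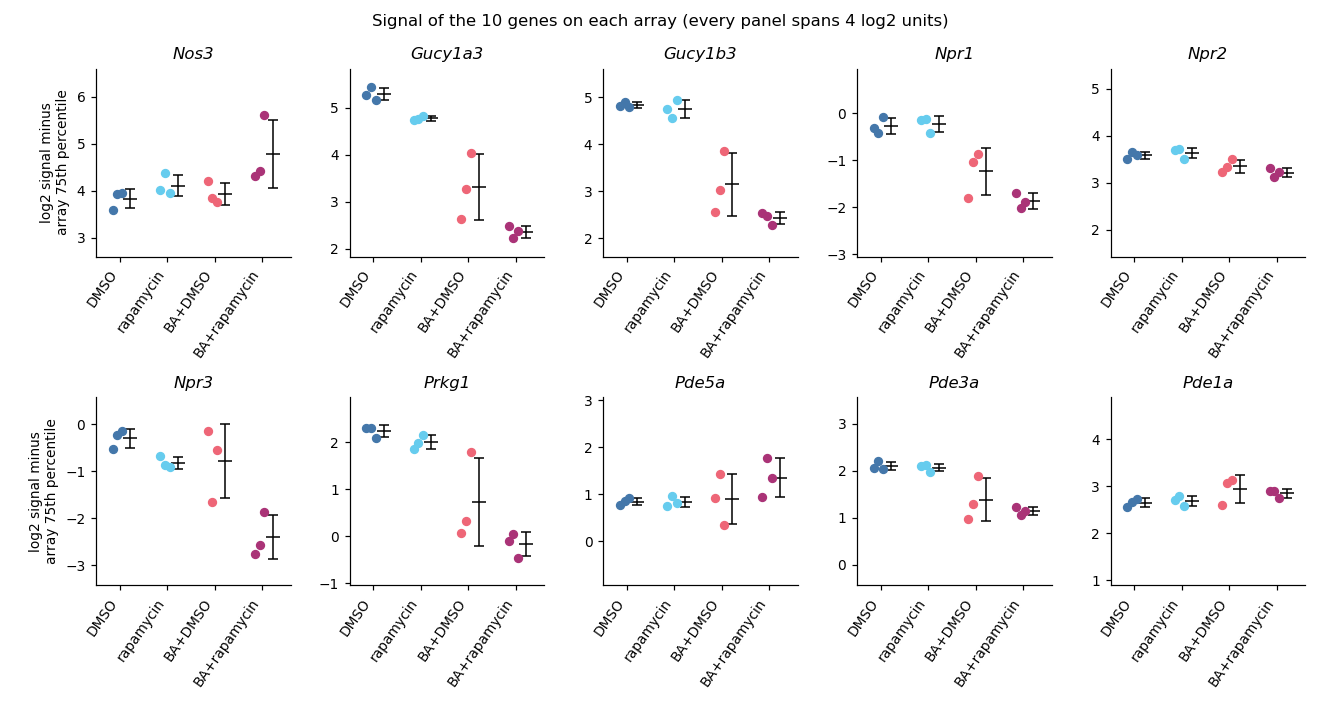
Log2 level of the main probe of each of the 10 genes (y axis, relative to the array's 75th percentile) on all 12 arrays, by treatment on the x axis, with 1 point per array and the group mean ± SD (n = 3) beside the points. In Gucy1a3 and Gucy1b3 every challenged array lies below every unchallenged one, while Nos3 stands out in 1 BA+rapamycin array at 5.60.

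Nos3, the endothelial synthase, stood at 3.59, 3.94 and 3.96 on the DMSO arrays, at 4.01, 4.37 and 3.94 on the rapamycin arrays, at 4.20, 3.85 and 3.76 on the BA+DMSO arrays and at 4.31, 4.42 and 5.60 on the BA+rapamycin arrays. The first 3 groups overlap, and the last lies above BA+DMSO with array 3 far above its group. The challenge difference was 0.10 (SE 0.31, adjusted p = 0.840), with a 95% interval of -0.58 to 0.79. Rapamycin under challenge gave 0.84 (SE 0.31, unadjusted p = 0.0207, adjusted p = 0.197), and without array 3 of BA+rapamycin the difference was 0.43, the lowest of the leave-one-out values. The second Nos3 probe, printed at 10 spots per array, had group means of 1.64, 2.03, 1.90 and 2.43 in the same order. Array 3 of BA+rapamycin was again the high one there, at 3.39, and rapamycin under challenge was 0.53 (SE 0.35, unadjusted p = 0.156) with overlapping groups.

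The endothelial markers stand beside Nos3 as follows. Of 18 endothelial markers, all tested and well above background on all arrays, 4 rose in challenge (Kdr, Tie1, Emcn and Robo4) and none fell, with a median difference of 0.57. Under rapamycin, 4 rose with challenge and 2 fell, Pecam1 (-0.87, adjusted p = 0.0256) and Tek (-0.99, adjusted p = 0.0415), with a median of 0.31. Beside them, 10.4% of all genes were called higher and 11.0% lower in challenge, and 19.8% and 22.9% under rapamycin, so that nothing particular to the markers is read from these counts. Their summed level, as log2 relative to the 75th percentile, ranged over 7.55 to 7.83 in DMSO and 7.71 to 8.23 in rapamycin. It ranged over 7.95 to 8.50 on the BA+DMSO arrays and 8.18 to 8.82 on the BA+rapamycin arrays. Per array, the median marker change from the DMSO mean was highest on array 3 of BA+rapamycin, at 1.14, against 0.26 and 0.39 on the other arrays of that group. The change of Nos3 minus that of the markers was -0.43 ± 0.07 (SD, n = 3) in BA+DMSO and 0.35 ± 0.25 in BA+rapamycin, beside 0.06 ± 0.09 in rapamycin. The part of the markers in the level of Nos3 was not tested. In a tissue sample, fewer cells of a type and less RNA per cell cannot be told apart.

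Gucy1a3, which encodes the alpha subunit of soluble guanylate cyclase, stood at 5.28, 5.43 and 5.17 on the DMSO arrays and at 4.75, 4.75 and 4.84 on the rapamycin arrays. On the BA+DMSO arrays it stood at 2.62, 3.28 and 4.03, and on the BA+rapamycin arrays at 2.49, 2.24 and 2.37. The 4 groups do not overlap at any point and descend in this order, with a wide spread only in BA+DMSO, where array 3 is the highest. Challenge lowered Gucy1a3 by a log2 difference of -1.98 (SE 0.28, 95% interval -2.61 to -1.36, adjusted p = 0.00139). Challenge under rapamycin gave -2.41 (SE 0.28, adjusted p = 0.000332), a 5.32-fold lower level.

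Gucy1b3, the beta subunit that binds the haem sensing nitric oxide, stood at 4.80, 4.90 and 4.80 on the DMSO arrays and at 4.76, 4.56 and 4.94 on the rapamycin arrays. On the BA+DMSO arrays it stood at 2.55, 3.02 and 3.86, and on the BA+rapamycin arrays at 2.53, 2.47 and 2.28. Unchallenged groups overlap here, and both challenged groups lie below them. Challenge gave -1.69 (SE 0.28, adjusted p = 0.00264) and challenge under rapamycin -2.33 (SE 0.28, adjusted p = 0.000339), a 5.03-fold lower level. The subunits followed each other closely across arrays, with r = 0.987 over 12 arrays that share their groups and scaling. Within an array, Gucy1a3 minus Gucy1b3 was 0.46 ± 0.08 in DMSO, 0.17 ± 0.09 after challenge, 0.02 ± 0.15 with rapamycin and -0.06 ± 0.16 with both (SD, n = 3). The change from DMSO was -0.29 in BA+DMSO and -0.44 in rapamycin, each with an exact two-sided permutation p of 0.1, the smallest that 3 arrays against 3 allow, and an adjusted p of 0.2 over 12 such comparisons.

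Leaving out any 1 of the 12 arrays left both subunits called, over log2 differences of -2.34 to -1.64 for Gucy1a3 and of -2.05 to -1.40 for Gucy1b3. With the slide as a block no gene of the 10 was called in challenge: Gucy1a3 was at -2.03 with an adjusted p of 0.230 and Gucy1b3 at -1.68 with 0.299, and only 15 probes of the whole array were called. With the arrays' brightness as a covariate both subunits kept their calls, at -1.57 (adjusted p = 0.010) and -1.28 (adjusted p = 0.0190). Array weights ended both calls, at -1.55 (adjusted p = 0.0618) for Gucy1a3 and -1.27 (adjusted p = 0.162) for Gucy1b3.

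Npr1, the receptor for atrial and brain natriuretic peptide, stood at -0.31, -0.41 and -0.08 on the DMSO arrays, at -0.14, -0.12 and -0.42 on the rapamycin arrays, at -1.80, -1.04 and -0.87 on the BA+DMSO arrays and at -1.69, -2.02 and -1.90 on the BA+rapamycin arrays. Both challenged groups lie below both unchallenged ones and overlap each other through array 1 of BA+DMSO. Challenge gave -0.97 (SE 0.24, adjusted p = 0.0174) and challenge under rapamycin -1.64 (SE 0.24, adjusted p = 0.000927), a 3.12-fold lower level. The challenge call was lost without DMSO array 2 (adjusted p = 0.0512), without DMSO array 3 (adjusted p = 0.0667) and under another background correction, normexp, at -0.44 (adjusted p = 0.0587). Brightness as a covariate (-0.90, adjusted p = 0.0672), array weights (-0.64, adjusted p = 0.544) and a fit of both groups alone (adjusted p = 0.109) also ended it. With normexp, challenge under rapamycin was -0.61 (adjusted p = 0.00667).

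Npr2, the receptor for C-type natriuretic peptide, moved little. It stood at 3.51, 3.65 and 3.59 in DMSO and 3.69, 3.71 and 3.51 in rapamycin. With challenge it stood at 3.22, 3.33 and 3.50 on the BA+DMSO arrays and at 3.32, 3.11 and 3.22 on the BA+rapamycin arrays. Challenged arrays lie at or below the lowest unchallenged value. Challenge gave -0.23 (adjusted p = 0.289), and challenge under rapamycin gave -0.42 (SE 0.15, adjusted p = 0.0423), a 1.34-fold lower level. That call rests on the scaling and on single arrays: quantile normalization gave -0.27 (adjusted p = 0.139), and only 3 of the 12 fits without 1 array kept it.

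Npr3, the clearance receptor, stood at -0.52, -0.24 and -0.15 on the DMSO arrays and at -0.67, -0.86 and -0.92 on the rapamycin arrays. On the BA+DMSO arrays it stood at -0.14, -1.66 and -0.55, and on the BA+rapamycin arrays at -2.75, -2.57 and -1.87. The BA+DMSO arrays are spread over the whole unchallenged range and beyond it, through array 2, while the BA+rapamycin arrays all lie below every other array. Npr3 was well above background on only 1 of the 3 BA+rapamycin arrays, and on all other arrays. Challenge gave -0.48 (adjusted p = 0.356) with overlapping groups, and challenge under rapamycin gave -1.58 (SE 0.35, adjusted p = 0.00638), which normexp background correction reduced to -0.38 (adjusted p = 0.0741). Rapamycin under challenge gave -1.62 (SE 0.35, unadjusted p = 0.000766), which missed the threshold with an adjusted p of 0.0779 and was -0.57 with normexp. Within an array, Npr3 minus Npr2 differed by -1.48 (log2) between BA+rapamycin and BA+DMSO, with an exact two-sided permutation p of 0.1 and 0.2 after adjustment over the same 12 comparisons. Npr3 minus Npr1 differed by -0.98 with overlapping groups (exact permutation p = 0.3, adjusted 0.45). Since Npr3 was well above background on only 1 BA+rapamycin array, the sizes of both pair differences are not exact.

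Prkg1, the cGMP-dependent kinase, stood at 2.30, 2.31 and 2.08 on the DMSO arrays and at 1.86, 1.98 and 2.16 on the rapamycin arrays. On the BA+DMSO arrays it stood at 0.07, 0.32 and 1.80, and on the BA+rapamycin arrays at -0.11, 0.05 and -0.45. Array 3 of BA+DMSO lies close to the unchallenged arrays, and the other 5 challenged arrays lie far below them. Challenge gave -1.51 (SE 0.37, adjusted p = 0.0171) and challenge under rapamycin -2.17 (SE 0.37, adjusted p = 0.00188), a 4.50-fold lower level. The challenge call was lost without DMSO array 1 (adjusted p = 0.0537), DMSO array 2 (adjusted p = 0.0668) or BA+DMSO array 1 (adjusted p = 0.0651), and with brightness as a covariate, at -0.84 (adjusted p = 0.138). Array weights (-0.94, adjusted p = 0.469) and a fit of both groups alone (adjusted p = 0.103) ended it too.

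Among the phosphodiesterases, the main Pde3a probe stood at 2.06, 2.20 and 2.04 in DMSO and 2.09, 2.13 and 1.98 in rapamycin. With challenge it stood at 0.97, 1.30 and 1.89 on the BA+DMSO arrays and at 1.22, 1.06 and 1.15 on the BA+rapamycin arrays. All challenged arrays lie below all unchallenged ones, array 3 of BA+DMSO by the least. Challenge gave -0.71 (SE 0.21, adjusted p = 0.0372) and challenge under rapamycin -0.93 (SE 0.21, adjusted p = 0.00731). The other 2 Pde3a probes were not called, with differences of 0.05 and -0.08 in challenge and of 0.17 and -0.06 in challenge under rapamycin, so the fall of Pde3a was seen by 1 of its 3 probes. It was called in only 2 of 12 fits without 1 array for challenge, and in all 12 for challenge under rapamycin. The array design assigns the main Pde3a probe to another transcript than the other 2 probes, which share theirs.

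Pde5a, the enzyme inhibited by sildenafil, gave different answers at different probes. Its main probe stood at 0.76, 0.85 and 0.91 in DMSO and 0.75, 0.95 and 0.80 in rapamycin. With challenge it stood at 0.92, 1.43 and 0.34 on the BA+DMSO arrays and at 0.95, 1.77 and 1.33 on the BA+rapamycin arrays. These groups overlap, the BA+rapamycin arrays reaching highest, and neither challenge (0.06, adjusted p = 0.904) nor challenge under rapamycin (0.52, adjusted p = 0.143) was called.
The second Pde5a probe, at chr3:122478836-122478895 and 80.1 kb from the main one, stood at -1.79, -1.64 and -2.09 in DMSO and at -0.93, -1.62 and -0.84 in rapamycin. On the BA+DMSO arrays it stood at -5.14, -4.39 and -3.91, and on the BA+rapamycin arrays at -4.77, -4.29 and -4.82, not well above background on any of the 6 challenged arrays. Measured against the lowest probes above background, it was at least 2.61-fold lower in challenge and at least 2.96-fold lower in challenge under rapamycin. This probe passed the filter only through the unchallenged groups, where it is high, so the bounds are given without a test. The array design assigns this probe to another transcript, and its 60 bases hold a stop codon in all 3 frames. Such stop codons are also found in the main Nos3 probe and in a Pde3a probe other than the main one. Averaging both Pde5a probes turned the Pde5a difference to -1.29 in challenge and to -1.49 in challenge under rapamycin. These means rest in part on the dim probe and are not read as a test.

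Pde1a stood at 2.54, 2.67 and 2.73 in DMSO and 2.70, 2.78 and 2.57 in rapamycin. With challenge it stood at 2.60, 3.07 and 3.13 on the BA+DMSO arrays and at 2.90, 2.89 and 2.74 on the BA+rapamycin arrays. The groups lie within a narrow range and no comparison called this probe. The second Pde1a probe, whose sequence is printed above the results, stood at 1.06, 0.73 and 1.01 in BA+DMSO and at 2.00, 1.58 and 1.46 in BA+rapamycin, groups that do not overlap. Rapamycin under challenge was 0.75 there (SE 0.18, unadjusted p = 0.00136) and missed the threshold with an adjusted p of 0.0911, while the main probe gave -0.09.

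**Figure D2:**
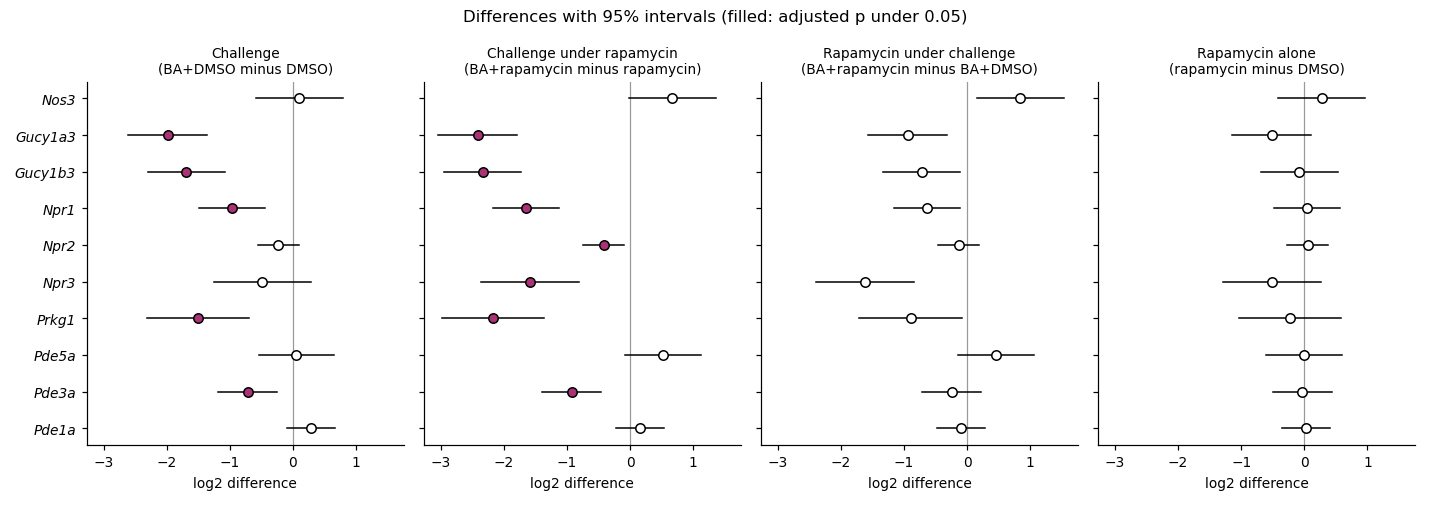
Log2 difference of each gene (main probe) in the 4 comparisons, 1 panel per comparison, with bars for the 95% interval from limma and filled points for an adjusted p under 0.05. Filled points, 5 in challenge and 7 in challenge under rapamycin, all lie below 0, and neither rapamycin comparison has one.

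In mice that received rapamycin, challenge lowered 7 of the 10 genes: the 5 that were also called without the drug, with Npr2 and Npr3. Over all genes, 22.9% were called lower and 19.8% higher. The median was -1.25 over the 10 genes and -0.07 over all genes. Group values did not overlap for 7 of the 10 genes here, beside 67.8% of all genes, and for 6 of the 10 in challenge, beside 35.6%. The difference between both challenge comparisons, the interaction, was called for none of the 10 genes by limma, as for none of all genes (0%), and 1 of the 10 passed an unadjusted p of 0.05, beside 6.01% of all genes. That gene was Npr3, at -1.10 (unadjusted p = 0.0488, adjusted p = 0.737). A larger number of calls under rapamycin is therefore not a shown difference. On the second slide alone, which holds the BA+rapamycin arrays and 2 rapamycin arrays, 4 genes were called: Gucy1a3 (-2.43, adjusted p = 0.0137), Gucy1b3 (-2.33, adjusted p = 0.0149), Npr1 (-1.60, adjusted p = 0.0270) and Prkg1 (-2.24, adjusted p = 0.0310). There Npr3 was at -1.51 (adjusted p = 0.0643), Pde3a at -0.91 (adjusted p = 0.0760) and Npr2 at -0.39 (adjusted p = 0.235). With brightness as a covariate only Gucy1a3, at -1.68 (adjusted p = 0.0478), and Gucy1b3, at -1.61 (adjusted p = 0.0489), were called.

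Rapamycin under challenge called none of the 10 genes by limma, where 0.305% of all genes were called. At an unadjusted p under 0.05 there were 6 of the 10, beside 20.5% of all genes: Npr3, Gucy1a3, Nos3, Npr1, Gucy1b3 and Prkg1. Nos3 was higher in BA+rapamycin and the other 5 were lower. Gucy1a3 differed by -0.94 (SE 0.28, adjusted p = 0.141), Prkg1 by -0.90 (SE 0.37, adjusted p = 0.221), Gucy1b3 by -0.72 (SE 0.28, adjusted p = 0.207) and Npr1 by -0.63 (SE 0.24, adjusted p = 0.201). The values of BA+rapamycin and BA+DMSO did not overlap for Nos3, Gucy1a3, Gucy1b3, Npr3 and Prkg1, 5 of the 10, beside 14.9% of all genes. The median was -0.44 over the 10 genes and -0.03 over all genes. These tests turned on single arrays of the wide BA+DMSO group. Without its array 2, Gucy1a3 (-0.96, adjusted p = 0.0399), Npr3 (-2.05, adjusted p = 0.00200) and Pde5a (0.72, adjusted p = 0.0396) were called, along with 11092 probes in place of 78. Without its array 1, Gucy1a3 was called at -1.29 (adjusted p = 0.0397). None of the 10 genes reached the study's own rule, an unadjusted p under 0.01 with a difference over 4-fold.

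In unchallenged aorta, rapamycin alone called none of the 10 genes by limma, and 1 gene of all tested (0.00499%). None of the 10 passed an unadjusted p of 0.05 either, beside 4.43% of all genes. Among main probes, Gucy1a3 and Npr3 had the largest differences, -0.52 (SE 0.28, unadjusted p = 0.0966) and -0.51 (SE 0.35, unadjusted p = 0.171). Both genes had groups that do not overlap, 2 of the 10 beside 22.4% of all genes. With array weights in the fit, Gucy1a3 was called at -0.56 (adjusted p = 0.0107), along with 1512 probes in place of 1. The other 8 genes lay between -0.23 for Prkg1 and 0.28 for Nos3. The second Pde5a probe gave 0.71 (SE 0.32, unadjusted p = 0.0485, adjusted p = 1.00), with groups that do not overlap. Within the rapamycin group, the arrays of the second slide differed from the array on the first by -0.21 to 0.21 over the 10 genes.

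The smooth muscle markers stand beside the members as follows. Of 16 such markers, 7 were called lower in challenge, among them Lmod1, Synpo2, Cald1, Tpm2, Itga8 and Pln. None was called higher and 9 were not called, with a median of -0.89, beside 11.0% of all genes lower and 10.4% higher. Acta2 (0.27, adjusted p = 0.402), Myh11 (-0.56, adjusted p = 0.437) and Tagln (0.45, adjusted p = 0.272) were not called. In challenge under rapamycin 7 fell and 1, Tagln, rose, with a median of -0.80, beside 22.9% of all genes lower and 19.8% higher. Of the 16, 15 were well above background on all arrays, and Pln was below that limit on all 6 challenged arrays. Pln passed the filter only through the unchallenged groups, so its fall, though counted here, is not read as a test. Their summed level was 11.83 to 11.90 in DMSO and 11.71 to 11.87 in rapamycin, and it spanned 11.38 to 12.35 over the BA+DMSO arrays and 11.87 to 12.23 over the BA+rapamycin arrays. Per array, the median marker change from the DMSO mean was -1.63 to -0.48 with BA+DMSO, and -0.95 to -0.74 with BA+rapamycin.

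Gucy1a3 and Gucy1b3 lay below the median change of these markers on all 6 challenged arrays, and Prkg1 on 5 of them, although single markers such as Synpo2 (-2.58 in challenge, adjusted p = 0.000955) fell by more. The change of Gucy1a3 minus that of the markers was -1.11 ± 0.37 (SD, n = 3) in BA+DMSO and -2.09 ± 0.13 in BA+rapamycin, beside -0.39 ± 0.05 in rapamycin. For Gucy1b3 it was -0.82 ± 0.44 and -1.57 ± 0.04 in the challenged groups, and for Prkg1 -0.63 ± 0.74 and -1.56 ± 0.19. Npr1 stood at -0.10 ± 0.18, close to the markers, in BA+DMSO and at -0.76 ± 0.14 in BA+rapamycin. Pde3a stood at 0.16 ± 0.41 and -0.12 ± 0.11, close to the markers, and Pde1a at 1.16 ± 0.37 and 1.03 ± 0.04, above them. Macrophage markers moved the other way, with 10 of 11 tested markers higher in challenge, a median of 2.09, and a summed level of 6.81 to 7.15 in DMSO and 6.94 to 7.19 in rapamycin. That level was 7.60 to 8.95 over the BA+DMSO arrays and 8.58 to 8.99 over the BA+rapamycin arrays. Of the other marker lists, 4 of 12 fibroblast, 2 of 5 brown adipocyte, 1 of 8 platelet and 1 of 6 nerve markers were higher in challenge, 1 of 10 striated muscle markers was lower, and none of 8 adipocyte markers was called. Under rapamycin, 8 of the 11 macrophage markers were higher with challenge and none lower, with a median of 1.43. There 4 fibroblast markers were higher and 2 lower, 1 brown adipocyte marker was higher and 2 lower, 3 platelet markers were higher, 2 striated muscle markers were higher and 1 lower, and no nerve or adipocyte marker was called. Over all genes 10.4% were called higher and 11.0% lower in challenge, and 19.8% and 22.9% under rapamycin, and nothing is read from the counts of these short lists. The adipocyte markers differed widely within groups, with a median change of 0.16 to 2.41 over the BA+DMSO arrays and -0.34 to 2.71 over the BA+rapamycin arrays. The part of cell composition in the members' changes was not tested.

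**Figure D3:**
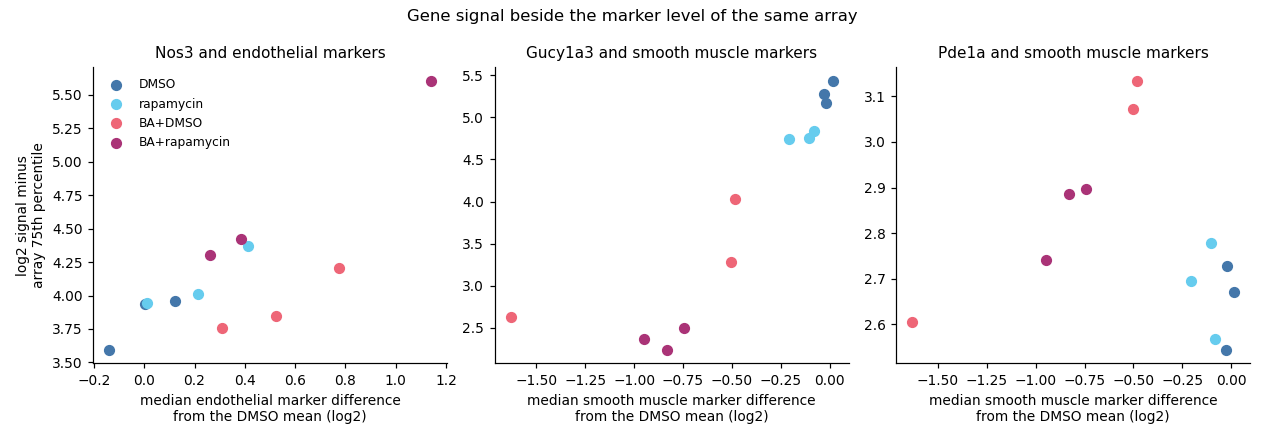
Log2 level (y axis, relative to the array's 75th percentile) of Nos3 against the median change of 18 endothelial markers from the DMSO mean (x axis, log2), and of Gucy1a3 and Pde1a against that of 16 smooth muscle markers, with 1 point per array coloured by group. The highest Nos3 value, 5.60, is on the array with the highest endothelial markers, at 1.14, and the lowest Gucy1a3 values are on BA+rapamycin arrays, whose muscle markers are not the lowest.

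The pathway beyond the 10 genes was read with 4 lists of 91 genes, 90 of them on the array and 64 tested. In challenge, 9 of the 64 rose and 9 fell, and in challenge under rapamycin 14 rose and 17 fell, with none called in the other comparisons. These counts stand beside the shares of all genes, 10.4% higher and 11.0% lower in challenge and 19.8% and 22.9% under rapamycin, and nothing particular to the pathway is read from them or from the counts of its 4 lists. The median was -0.13 in challenge and -0.10 in challenge under rapamycin.

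Genes of nitric oxide synthesis and its cofactor had 5 of 22 higher and none lower in challenge. Ddah1, which degrades the synthase inhibitor dimethylarginine, was at least 9.93-fold higher (adjusted p = 0.00229), its DMSO level not being well above background. Gch1, the first enzyme of tetrahydrobiopterin synthesis, rose by 1.72 (adjusted p = 0.00370), although its other probe gave 0.68 (adjusted p = 0.355). Nostrin, a trafficking partner of Nos3, rose by 1.69 (adjusted p = 0.0234), being well above background on 1 of 3 DMSO arrays and 2 of 3 BA+DMSO arrays. In challenge under rapamycin 6 rose and 5 fell, and Ddah1 rose by 2.79 (adjusted p = 0.00427). The inducible synthase Nos2 was at 0.29 in challenge (adjusted p = 0.332) and rose by 0.74 in challenge under rapamycin (adjusted p = 0.0145), and Nos1 was not tested.

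Of 8 tested other cyclases and peptide genes, none was called in challenge, and 2 rose and 1 fell in challenge under rapamycin. The atrial peptide gene Nppa was at -0.23 (adjusted p = 0.799) in challenge and at 1.31 (adjusted p = 0.0783) in challenge under rapamycin, and Nppb and Nppc did not pass the filter. Of 17 other phosphodiesterase and export genes, 3 rose and 1 fell in challenge. Pde10a was at least 3.97-fold higher (adjusted p = 0.00522), with 2 of 3 BA+DMSO arrays well above background, and Pde4b, a cAMP phosphodiesterase, fell by 1.33 (adjusted p = 0.0106). In challenge under rapamycin 5 rose, among them Pde2a, a cGMP-stimulated enzyme, by 1.43 (adjusted p = 0.00321) and the calcium-dependent Pde1b by 1.33 (adjusted p = 0.000534). Both were also higher in challenge, at 1.53 (adjusted p = 0.00407) and 0.94 (adjusted p = 0.00464). Pde10a, counted among the 5, was at 2.41, which is not read as a test. Its probe passed the filter only through BA+rapamycin, where it is high, and was well above background on 2 of 3 rapamycin arrays. The 2 falls included Pde4b by 1.34 (adjusted p = 0.00563). The other probes of Pde4b disagreed. One was lower in both comparisons, at -0.85 (adjusted p = 0.0297) and -0.84 (adjusted p = 0.0179), and the other was not called in either, at -0.27 (adjusted p = 0.681) and 0.41 (adjusted p = 0.436).

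Of 17 tested kinase, channel and target genes, 8 fell in challenge, 1 rose and 8 were not called, with a median of -0.93, and in challenge under rapamycin 9 fell and 1 rose. Itpr1, a calcium release channel that the kinase acts on, fell by 1.42 in challenge (adjusted p = 0.00207) and fell by 1.65 under rapamycin (adjusted p = 0.000620). Kcnma1, the large-conductance potassium channel, fell by 1.75 (adjusted p = 0.00989) and fell by 1.84 (adjusted p = 0.00427). Of its other 2 probes, both were lower under rapamycin, and 1 was not called in challenge (-0.70, adjusted p = 0.0649). Atp2a2, the calcium pump of the sarcoplasmic reticulum, fell by 1.75 (adjusted p = 0.00307) and fell by 1.78 (adjusted p = 0.00172), while its second probe gave -0.53 and -0.43 and was not called. Its inhibitor phospholamban, Pln, was at least 1.68-fold lower in challenge. The Pln probe passed the filter only through the unchallenged groups, where it is high, so this bound is given without a test. Pln is counted among the 8 falls, and normexp correction brought it to -0.04 (adjusted p = 0.910). Mrvi1, which couples the kinase to Itpr1, fell by 1.09 in challenge (adjusted p = 0.0247) and by 1.53 under rapamycin (adjusted p = 0.00326). Its other probe gave -0.04 (adjusted p = 0.957) and 0.33 (adjusted p = 0.546). Pln and Mylk stand on this list and on that of smooth muscle markers.

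Many of these pathway calls depend on the fit. With the slide as a block or with array weights, none of Ddah1, Pde10a, Gch1, Nostrin, Pln, Atp2a2, Kcnma1, Itpr1 and Pde4b kept its call in challenge. Pde2a, Pde1b and Mrvi1 were not followed through the alternatives in challenge. With brightness as a covariate, Kcnma1 was at -0.98 (adjusted p = 0.0674), Pde4b at -0.75 (adjusted p = 0.0643) and Nostrin at 1.71 (adjusted p = 0.0789) in challenge, where Ddah1, Gch1, Pde10a, Atp2a2 and Itpr1 kept their calls. The same covariate ended, in challenge under rapamycin, the calls of Kcnma1 (-0.51, adjusted p = 0.533), Pde4b (-0.33, adjusted p = 0.598), Atp2a2 (-1.21, adjusted p = 0.166), Itpr1 (-1.23, adjusted p = 0.0633) and Mrvi1 (-1.03, adjusted p = 0.236). It also ended those of Ddah1 (3.26, adjusted p = 0.0962), Pde10a (2.10, adjusted p = 0.149) and Pde2a (1.17, adjusted p = 0.174), and Pde1b kept its call at 1.48 (adjusted p = 0.0186). Nostrin lost its challenge call without DMSO array 2 (1.31, adjusted p = 0.103), DMSO array 3 (1.65, adjusted p = 0.0680) or BA+DMSO array 1 (1.56, adjusted p = 0.0810), and Pde4b without DMSO array 2 (-1.22, adjusted p = 0.0544). Pln lost it without DMSO array 1 (-1.98, adjusted p = 0.0652), DMSO array 2 (-2.12, adjusted p = 0.0686) or BA+DMSO array 1 (-1.84, adjusted p = 0.0768). The second slide alone ended the calls of Kcnma1 (-1.80, adjusted p = 0.0502) and Pde4b (-1.40, adjusted p = 0.0507) in challenge under rapamycin. A fit of both groups alone ended, in challenge, those of Gch1 (adjusted p = 0.0570), Nostrin (0.0683), Pln (0.0765), Kcnma1 (0.0743) and Pde4b (0.0770).

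**Figure D4:**
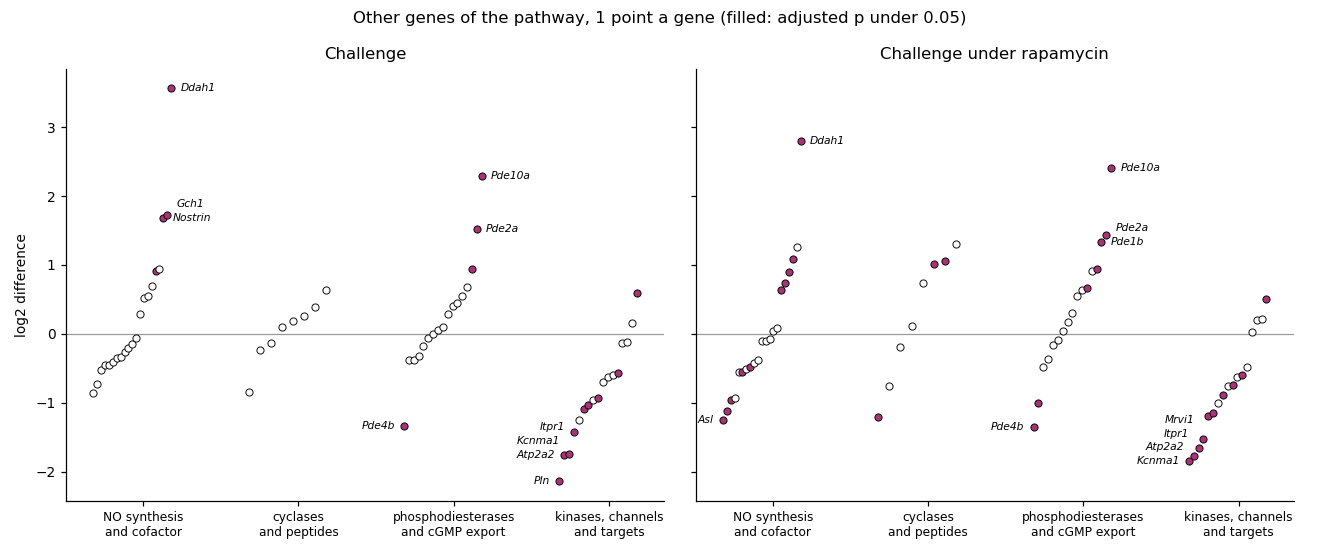
Log2 difference (y axis) of the tested genes reported from the 4 pathway lists (x axis) in challenge and in challenge under rapamycin, with 1 point per gene and filled points for an adjusted p under 0.05. Of the kinase, channel and target list, 8 of 17 points in challenge are filled and below 0, and 1 is filled and above it.

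The 3 genes whose levels were most like each member, by Pearson's r over the 12 arrays, are given as a description, since all genes share the 4 groups and 1 scaling. For Nos3 they were Dhh (0.899), Capn5 (0.874) and Rasip1 (0.870). For Gucy1a3 they were Dhx35 (0.993), Tub (0.991) and Itpk1 (0.991), and for Gucy1b3 they were Bex4 (0.995), Itpr1 (0.994) and Hdgfrp3 (0.994). Itpr1 is thus both a pathway gene and among the nearest to a cyclase subunit. For Prkg1 the nearest was Itga8 (0.995), an integrin on the smooth muscle list, before Dohh (0.994) and Ramp1 (0.993). For Npr1 they were Hyal1 (0.983), Dguok (0.981) and Rarres2 (0.981), for Npr2 Itgb5 (0.972), Slmo1 (0.970) and Pkn2 (0.963), and for Npr3 Sncaip (0.975), Scyl2 (0.961) and Nup85 (0.957). For Pde3a they were Mapk9 (0.987), Prkaa2 (0.986) and Smad9 (0.985), for Pde5a Pick1 (0.950), Pfkp (0.947) and Slfn9 (0.937), and for Pde1a Sf3a2 (0.937), Dnajc14 (0.902) and Tomm40 (0.893). Nos3 and Pde1a had the lowest values here, and Prkg1 and both cyclase subunits the highest.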

How the data were processed

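Total RNA of 12 aortas was labelled with Cy3 and hybridised to 12 arrays, 3 mice per group. The deposited scanner files hold, per the file headers, intensity values (processed signal, background-corrected by Agilent Feature Extraction) and other per-spot flags for signal well above background, saturation and spot quality. The submitters' processing notes name Feature Extraction 9.5.1.1, while the headers name 10.7.1.1. The deposited value table holds intensities on a linear scale, with a median of 17.05 to 17.06 per array. Their log2 values match quantile-normalized log2 processed signal (lowest r 1.00), and the table served as an alternative only.

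Of 62976 spots, 3671 control spots were left out and spots of 1 probe were averaged, which gave 55681 probes, 6 of them dropped for flagged spots. Log2 processed signal minus the array's 75th percentile was tested where at least 0.5 of a probe's spots were well above background on all 3 arrays of 1 group, 27801 probes in all. No spot was saturated. The 4 group means were fitted with limma 3.58.1 in R 4.3.3, with Benjamini-Hochberg adjustment over the tested probes. The number of arrays, 3 per group, limits the precision. Within-array pairs used exact permutation tests. A bound set a dim probe against the lowest signal well above background on each array. The script was tested on simulated data.

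Groups come from the treatment named in each record. DMSO titles carry the prefix Pre, but the design text gives day 3 for these mice too, so they were read as vehicle controls of that day. The members and lists were chosen with earlier results of these data known. Named were all 10 members by their brightest tested probe, the 3 genes most like each, up to 5 largest rises and 5 largest falls called in each pathway comparison, and the natriuretic peptides, Nos1 and Nos2. Counts cover the whole lists, and 1 gene that this rule names is not reported here by its own values. Alternatives were other normalizations, normexp with offset 50, filters, slide, title number, brightness and array weights, other probe rules and leaving out each array. Title numbers repeat across groups but did not pair the arrays. The title day, whose meaning the labels do not give, served as an alternative for rapamycin alone, on the 4 arrays of the day that both groups share. Promoter sequences are from RefSeq (GRCm38.p6) and figures were drawn with matplotlib 3.10.9.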

Additional observations from a re-analysis of the deposited data

How the results depend on the processing

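Over 249 alternatives of single members in challenge, 204 kept direction and call, 34 lost a call and 11 turned direction. In challenge under rapamycin, 238 of 269 kept both, 26 lost a call, 2 gained one and 3 turned. The counts of members called moved as follows. In challenge (5 of 10), 0 were called with the slide as a block, with array weights and by the study's rule, 2 with brightness as a covariate or in a fit of both groups alone, and 2 to 5 without 1 array. In challenge under rapamycin (7 of 10), 4 were called on the second slide alone, 2 with brightness, 3 by the study's rule, 9 with array weights (Nos3 at 0.96 and Pde5a at 0.48, both higher) and 6 to 7 without 1 array. In rapamycin under challenge (0) it was 0 to 3 without 1 array, in the interaction (0) 0 to 1, with Npr3 at -1.54 (adjusted p = 0.0366) without BA+DMSO array 2, and in rapamycin alone (0) 1 with array weights. Probes called fell from 5697 to 15 with the slide block, to 112 with array weights and to 2051 without DMSO array 2 in challenge, and rose to 7555 without BA+DMSO array 2 and 10574 without BA+DMSO array 3, where 4 and 5 members were called. The causes were not tested.

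With the title number as a replicate block, 6 members were called in challenge under rapamycin, where Npr2 was lost at -0.38 (adjusted p = 0.0595), and 0 in rapamycin alone. The numbers share only a name: deviations of the 10 same-numbered array pairs correlated at -0.35 to 0.17 and those of 17 other pairs at -0.30 to 0.40. No paired analysis was possible because the BA+DMSO numbers occur in no other group, for the comparisons with that group.

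Direction turned for differences that the main fit did not call. Pde5a in challenge under rapamycin, at 0.52, was not a small one. In challenge, Nos3 was -0.085 with normexp, -0.040 with the slide block, -0.073 with array weights and -0.029 to 0.19 without 1 array. Pde5a was -0.085 with normexp, -0.073 with the slide block, -0.55 with brightness, -0.15 with array weights and -0.21 to 0.33 without 1 array. As a mean of its probes Pde5a was -1.29 and called, with 1 of the probes at background in challenged arrays. In rapamycin under challenge, Npr2 was 0.0045 with quantile normalization and the deposited values and 0.0058 with the 75th percentile over detected probes. Pde1a was 0.044 with quantile normalization and the deposited values, 0.037 with loess, 0.046 with the detected percentile, 0.33 as a mean of probes and -0.26 to 0.0037 without 1 array, and Pde3a -0.46 to 0.0032. In rapamycin alone, Npr1 was -0.024 within the shared title day, -0.0078 with the replicate block and -0.030 to 0.14 without 1 array, and Npr2 -0.011 and Pde1a -0.026 within the title day. Pde5a was 0.018 with quantile normalization, 0.016 with the detected percentile, 0.019 with the deposited values, 0.012 with loess, 0.035 with the replicate block, 0.11 with brightness, 0.35 as a mean of probes and -0.066 to 0.036 without 1 array. Pde3a was 0.0097 as a mean of probes and -0.064 to 0.015 without 1 array, Gucy1b3 was -0.17 to 0.014 and Pde1a -0.019 to 0.089. In challenge under rapamycin, Pde5a was -0.54 with brightness and -1.49 as a mean of probes (called, with the same probe at background), and Pde1a -0.21 with normexp. In the interaction, Pde5a was -0.20 and Pde1a 0.26 as a mean of probes, Pde1a 3.09e-05 with loess, and Pde3a 0.0032 with brightness and -0.42 to 0.038 without 1 array.

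The detected percentile shifted the median of all genes by 0.14 in rapamycin under challenge, 0.18 in challenge under rapamycin and 0.12 in the interaction, and normexp by 0.10 in challenge under rapamycin. Dim challenged arrays limit Npr3, Pln and the second Pde5a probe, which lay at or near background there.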
